A study of Gallus gallus with 10 samples.

Results

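The ion channel genes measured here are 99 of 13051 genes on chicken arrays, chosen by symbol alone: potassium channel symbols that start with KCN, sodium channel SCN pore (A) and beta (B) subunits, calcium channel subunits starting CACNA, CACNB or CACNG, and numbered HCN genes. RNA came from whole brains dissected from chicken embryos, on 5 arrays labelled male and 5 labelled female (dissection is the only treatment the labels name), and male birds carry ZZ and female birds ZW sex chromosomes. The sources used here give no age, breed or number of animals per array, so p-values measure the spread between arrays, which may in part be technical. The title of male replicate 1 names no sex, which its description gives. Of the 99 genes, 95 lay on autosomes and 2 on Z. For the other 2, the platform gene ID had no match in the reference table used for symbols, so they were left unplaced. No place was looked up by symbol. That table holds 118 symbols of this form, of which 19 were not among the members and were not analysed here.

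Voltage-gated sodium channels carry the rising phase of the action potential, potassium channels end it and hold neurons at rest, and calcium channels couple electrical activity to transmitter release and gene expression. Pore subunits form the ion path, and accessory subunits set how many channels reach the membrane and how fast they open and close. The symbol rule also takes in channels that are not gated by voltage, namely the inward rectifiers (KCNJ), the tandem-pore leak channels (KCNK) and the small-conductance channels opened by calcium (KCNN), so the set is wider than the name voltage-gated. The members fell into 10 role groups.

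Levels are the mean of log2(intensity + 16) for 1 probe set per gene, the brightest over the 10 arrays. A level depends on how well its probes bind, so levels of different genes are set against background and not against each other. Background was read from 687 probe sets named for viral sequences, whose medians ran from 5.41 on male replicate 1 to 6.32 on female replicate 3. A gene counted as above background on an array if it exceeded the 95th percentile of these probe sets there, and as at or above the median level if its mean reached 9.33, the median of all 38439 tested probe sets. Of the 99 channel genes, 64 (64.6%) were above background on all 10 arrays, 26 on some and 9 on none. Over all genes 72.7% were above background on all arrays. The median level was reached by 59 of the 99 (59.6%) and by 71.2% of all genes. The arrays each detected 71 to 77 of the members, and median intensity of the tested probe sets per array ran from 594 to 721.

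**Figure D1:**
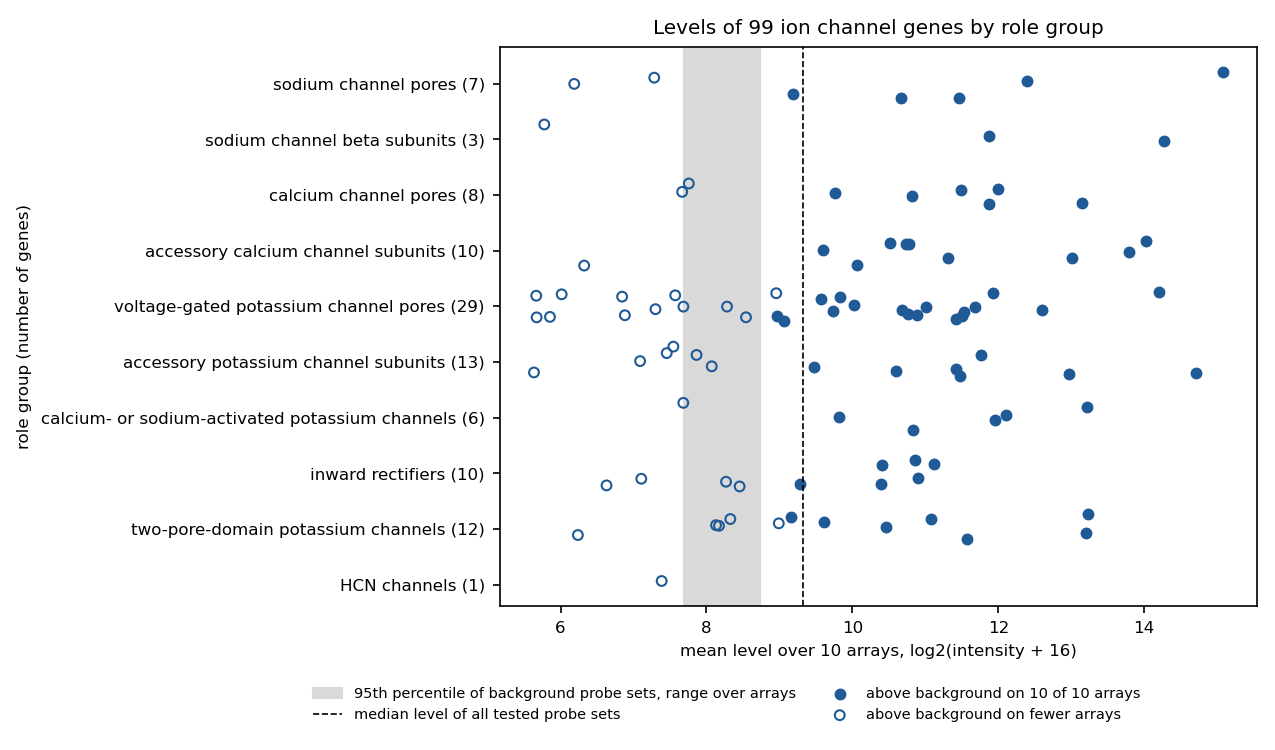
Mean level over 10 arrays, in log2(intensity + 16), of each of the 99 channel genes (points) by role group. The grey band is the range over arrays of the background threshold, filled points were above background on all 10 arrays, and 59 points lie at or right of the dashed line at 9.33.

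Sodium channel pore genes were above background on every array about as often as all genes. SCN2A, which encodes a channel of axons early in neuronal development, stood at 15.12 ± 0.08 on male arrays and 15.03 ± 0.07 on female arrays (SD, n = 5 each, as for the pairs of levels that follow, males first). SCN8A, the channel of the mature axon initial segment in mammals, had 12.42 ± 0.19 and 12.36 ± 0.10, and SCN1A had 11.40 ± 0.29 and 11.52 ± 0.26. In these 3 genes the male and female values overlapped. SCN3A, an embryonic form in mammalian brain, had 10.79 ± 0.12 in males and 10.56 ± 0.16 in females. SCN4A, the skeletal muscle form, was above background on 2 of 10 arrays at 7.19 ± 0.43 and 7.38 ± 1.42, and SCN11A, a form of sensory neurons in mammals, on none. SCN9A, another form of mammalian sensory neurons, named after its values were seen, was above background on all 10 arrays at 9.13 ± 0.58 and 9.25 ± 0.43. SCN1A, SCN2A, SCN3A and SCN9A all lie on chromosome 7. SCN1A, SCN2A and SCN3A have probe sets of a shared design family and resemble each other in sequence. The brightest probe set of SCN2A, used here, is of another design. Signal of these paralogs, and of SCN9A, on each other's probes was not separated. Among the beta subunits, SCN3B stood at 14.26 ± 0.23 and 14.28 ± 0.09 and SCN2B at 11.80 ± 0.17 and 11.94 ± 0.18, while SCN4B was above background on 0 of 10 arrays. Thus 5 of 7 pore genes (71.4%) and 2 of 3 beta subunit genes (66.7%) were above background on all arrays, against 72.7% of all genes.

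Calcium channel genes were detected across the classes of current. CACNA1B, the pore of the N-type channel of presynaptic terminals, had a level of 13.15 ± 0.14 in males and 13.15 ± 0.08 in females. CACNA1G, a T-type pore that opens at low voltage, had 11.95 ± 0.13 and 12.03 ± 0.16, and CACNA1C, an L-type pore, 10.77 ± 0.21 and 10.85 ± 0.31. CACNA1E, the R-type pore, had 11.69 ± 0.24 in males and 12.05 ± 0.20 in females, the only one of the 8 pore genes with no overlap between the sexes. The muscle L-type pore CACNA1S was above background on 1 array, and 6 of 8 pore genes (75.0%, against 72.7% of all genes) were so on all arrays. Of 10 accessory calcium channel genes, 9 (90.0%) were above background on all arrays. They included CACNA2D1, an alpha2delta subunit that brings channels to the membrane, at 14.09 ± 0.09 and 13.96 ± 0.16. CACNG4 at 13.73 ± 0.08 and 13.84 ± 0.10, CACNG3 at 12.99 ± 0.23 and 13.03 ± 0.12 and CACNG2 at 10.08 ± 0.19 and 10.05 ± 0.23 encode gamma subunits that in mammals mainly escort AMPA-type glutamate receptors. The exception was CACNG1, the gamma subunit of the skeletal muscle channel, which was above background on 0 arrays.

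Voltage-gated potassium channel pores were the largest group. Of 29 genes, 17 (58.6%, against 72.7% of all genes) were above background on all arrays and 4 on none. KCND2, a pore of the fast A-type current of dendrites, had a level of 14.13 ± 0.15 in males and 14.27 ± 0.07 in females. KCNC1, a pore of fast-spiking neurons, had 12.61 ± 0.27 and 12.59 ± 0.25, and KCNG1, a silent subunit that works only together with other pores, 11.91 ± 0.30 and 11.94 ± 0.12. KCNA2, a pore of axons, stood at 11.65 ± 0.29 and 11.70 ± 0.16 and KCNQ3, a subunit of the M-current, at 11.56 ± 0.27 and 11.49 ± 0.11. KCNA1, the axonal partner of KCNA2, was listed at 5.58 ± 0.85 and 5.75 ± 0.64 and was above background on no array, like KCNA3, KCNH4 and KCNV2. KCNA1 had 2 probe sets and the brighter was used, so its low value is that of the probes and is not shown to be absence of the RNA.

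Accessory potassium channel genes split in the same way, with 7 of 13 (53.8%, against 72.7% of all genes) above background on all arrays. KCNAB1 and KCNAB2, cytoplasmic beta subunits of KCNA channels, stood at 14.68 ± 0.15 and 13.00 ± 0.19 on male arrays, beside 14.74 ± 0.20 and 12.94 ± 0.16 on female arrays. KCNIP4, a calcium-binding partner of KCND channels, had 11.68 ± 0.25 and 11.84 ± 0.12. Of the KCNE genes, small single-span partners studied mostly in heart and epithelia, KCNE4 was above background on every array and KCNE1, KCNE2 and KCNE3 were not.

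The group of channels opened by internal calcium or sodium was formed by symbol start. Of its 6 genes, 5 (83.3%, against 72.7% of all genes) were above background on all arrays. The exception, KCNU1, was in the group by its symbol alone and was above background on 3 arrays. KCNMA1, the large-conductance channel opened by calcium and voltage, had a level of 13.20 ± 0.13 in males and 13.23 ± 0.08 in females. The sodium-activated channel genes KCNT1 and KCNT2 had 12.14 ± 0.14 and 11.95 ± 0.17 in males and 12.06 ± 0.23 and 11.95 ± 0.27 in females. The leak channel genes KCNK2 at 13.25 ± 0.14 and 13.21 ± 0.07, KCNK7 at 13.24 ± 0.07 and 13.16 ± 0.10 and KCNK10 at 11.61 ± 0.16 and 11.54 ± 0.18 were among 7 of 12 tandem-pore genes above background on every array. Of the 10 inward rectifier genes 6 were, among them KCNJ5, a channel opened by G proteins, at 11.20 ± 0.05 and 11.04 ± 0.19, and KCNJ2 at 10.88 ± 0.24 and 10.92 ± 0.17. HCN4, the only pacemaker channel gene among the members, was above background on 4 of 10 arrays, with 6.94 ± 1.40 and 7.83 ± 1.22.

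Cell type markers put these levels in the context of a whole brain. Of 10 measured neuron markers 9 reached the median level, as did 9 of 9 progenitor, 6 of 6 astrocyte, 4 of 5 oligodendrocyte and 5 of 5 blood markers. Skeletal muscle markers reached it in 3 of 7, heart muscle markers in 0 of 6 and photoreceptor and pineal markers in 0 of 6. Summed intensity of the neuron markers ran from 402007 to 482029 in males and from 423374 to 454465 in females, and that of the muscle markers from 6936 to 9062 and from 6706 to 10392. The brightest of the muscle markers was PVALB, at 12.42 ± 0.18 and 12.33 ± 0.15, which is also a gene of brain interneurons and weighs most in that sum. The other 6 had means over the arrays from 6.47 to 9.99. Of these, ACTA1 and TNNC2 were highest on female replicates 3 and 4, at 11.19 and 11.02 for ACTA1 and at 9.49 and 9.83 for TNNC2. In whole tissue, fewer cells of a type and less RNA per cell cannot be told apart.

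No channel gene passed the test for a sex difference. Sexes were compared with limma over all genes (male minus female, Benjamini-Hochberg adjustment, threshold 0.05). Of the 99 channel genes, 0 passed with a male excess and 0 with a female excess, where 1.79% of all genes and 0.147% of autosomal genes passed. An unadjusted p under 0.05 was found for 6 channel genes (6.06%, against 7.62% of all genes). The share of all genes includes Z genes, of which 70.8% had such a p at or above the median level. At such levels it was found for 5.17% of 58 autosomal channel genes and for 4.07% of 8728 autosomal genes. The 59 members at or above the median level had a median difference of -0.03, against -0.02 for 8728 autosomal genes of such levels, with 24 positive and 35 negative. By role group these medians ran from -0.08 for 6 calcium channel pores and for 2 sodium channel beta subunits to 0.07 for 4 sodium channel pores.

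For the chosen probe sets of the brighter genes, the arrays set bounds on the size of a sex difference, but seldom narrow ones. These bounds hold for 1 probe set per gene, and other probe sets of a gene could differ. In KCNT1 the chosen one gave 0.09 and another, at a level of 10.77, gave -0.44 (SE 0.25). For 46 of the 59 members at or above the median level (78.0%), the 95% interval of the difference lay within 0.5 either way, a ratio of 1.41. For all 59 it lay within a ratio of 2, but for only 6 (10.2%) within 0.25, a ratio of 1.19. The interval was narrowest in SCN2A, at -0.05 to 0.23, around a difference of 0.09. Among the 13 wider intervals were those of KCNJ6 at -0.84 to 0.78 and KCNF1 at -0.09 to 0.83. For the 40 dimmer members, the half-width was 1.25 and 8 intervals lay within a ratio of 2, so differences of that size were not measurable in most of them. These 40 had a median difference of -0.18 with 27 negative. All genes below the median level had a median of -0.13 and the background probe sets of -0.18, and male replicate 1 had the lowest background. The part of background in the dim members' direction was not tested.

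**Figure D2:**
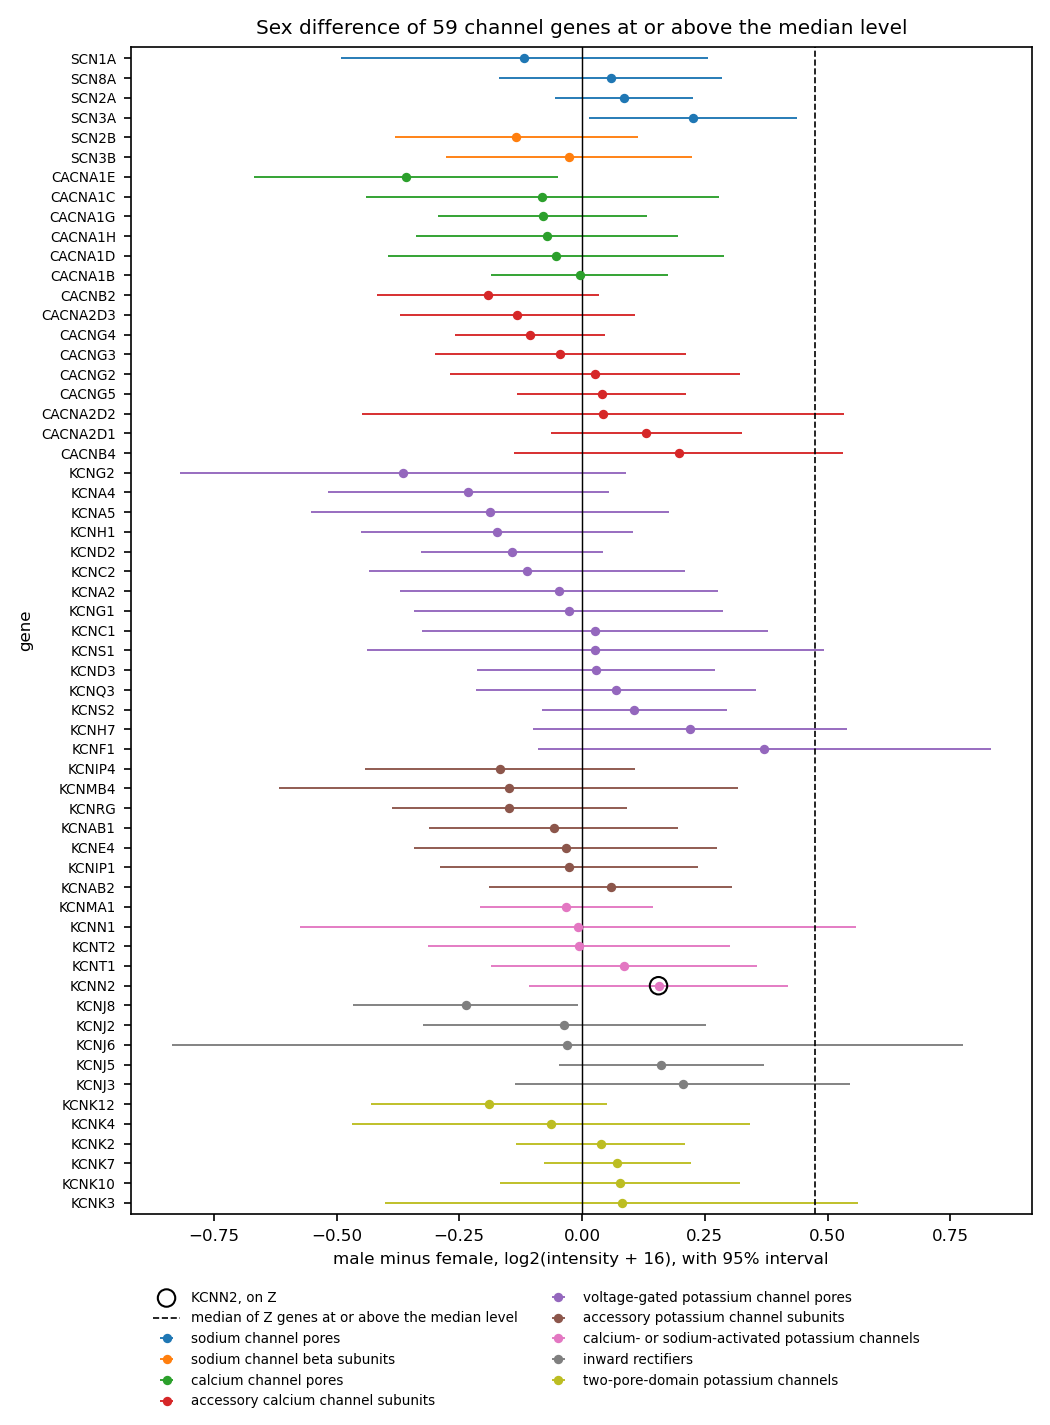
Male minus female difference in log2(intensity + 16), with its 95% limma interval, of the 59 channel genes at or above the median level, coloured by role group. KCNN2 (ringed), the Z gene among them, has an interval of -0.11 to 0.42, left of the dashed line at 0.47, the median of Z genes at such levels.

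The members placed on Z are KCNN2 and KCNV2. KCNN2 encodes a small-conductance channel opened by calcium that shapes the pause after a spike, and KCNV2 a silent potassium channel subunit known from photoreceptors. The reference table places 3 symbols of this form on Z, and the third was not read as a Z gene here. Whether it is KCNE1 or KCNU1, which were left unplaced by gene ID, was not checked. KCNN2 had levels of 10.91, 10.70, 11.08, 10.92 and 10.95 on male replicates 1 to 5 and of 11.00, 10.85, 10.39, 10.77 and 10.78 on female replicates 1 to 5. The ranges overlapped, and female replicate 3 was the lowest array. The difference was 0.16 (SE 0.12, 95% interval -0.11 to 0.42, ratio 1.11, limma adjusted p = 0.863). KCNV2 had 4.71, 4.94, 4.81, 8.19 and 5.20 in males and 5.35, 5.40, 5.03, 5.84 and 7.26 in females. Male replicate 4 stood far above the other males, no array was above background, and the difference of -0.20 (SE 0.71, adjusted p = 0.975) has no size that could be read. Of 606 Z genes 33.2% were higher in males.

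**Figure D3:**
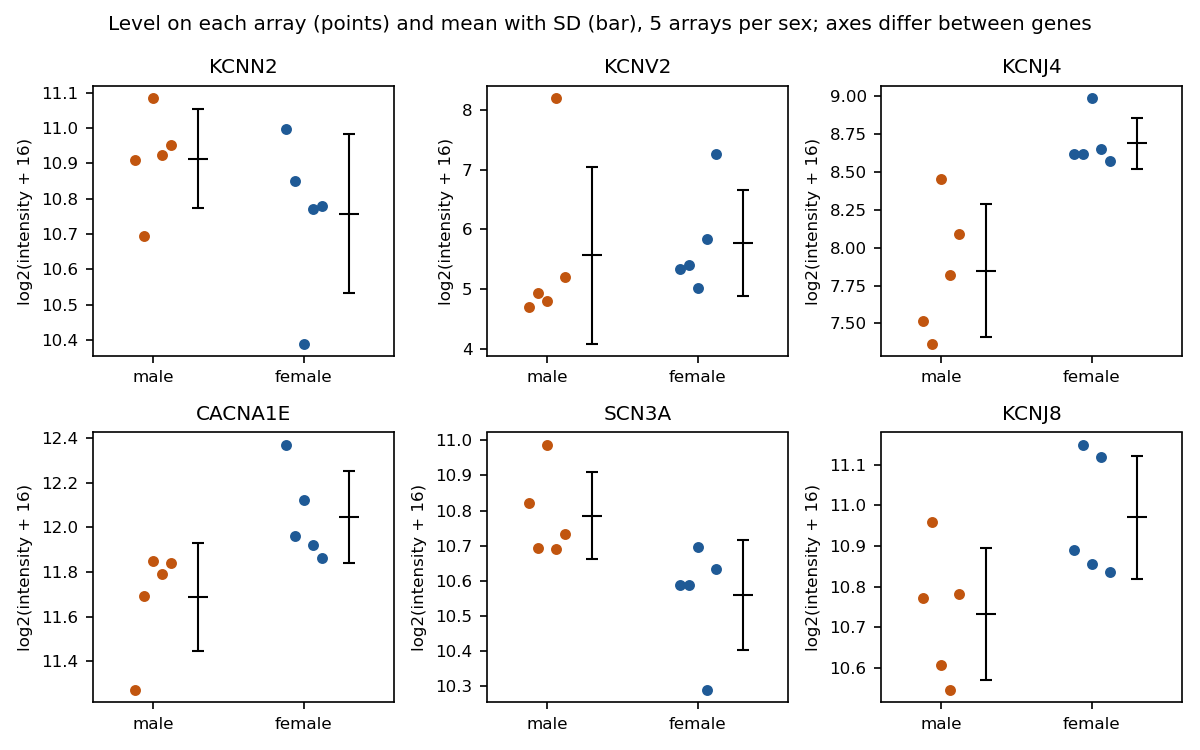
Level of 6 channel genes on each array (points), in log2(intensity + 16), with mean and SD (bars) of 5 male and 5 female arrays; the axes differ between panels. KCNJ4 and CACNA1E have no overlap between the sexes, and in KCNV2 male replicate 4 at 8.19 stands apart from the other males.

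The male minus female difference of KCNN2 was smaller than that of most other Z genes. The upper end of its interval, 0.42 or a ratio of 1.34, lay below 0.47, the median of the 445 Z genes at or above the median level (ratio 1.39), and 16.2% of these Z genes had a smaller difference. KCNN2 exceeded the median of autosomal channel genes of such levels by 0.18, where Z genes as a group exceeded autosomal genes by 0.49, and 6 autosomal channel genes had a larger difference than KCNN2. The level of KCNN2 relative to the other 444 Z genes, each centred on its mean, was -0.18 ± 0.16 on male arrays and 0.17 ± 0.21 on female arrays (SD, 5 arrays each), which differ by -0.35 (two-sided exact permutation p = 0.0317 over 252 arrangements, the smallest possible being 0.00794). Leaving out 1 array moved it from -0.44 to -0.29 with exact p of 0.00794 to 0.0635, and p was over 0.05 when the array left out was male replicate 1, male replicate 2 or any female replicate but the third. The comparison with other Z genes was added after seeing the data. Its p measures the spread between arrays and not that between Z genes, so it does not show KCNN2 to be unusual among them. The interval reached the Z median in 3 of 21 alternatives, with upper ends of 0.48 against 0.47 without male replicate 2 and without female replicate 1, and of 0.65 against 0.48 with a replicate block on the title letters. KCNN2 had 1 probe set, so no second measure of it was at hand.

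Most neighbours of KCNN2 on Z had a larger male minus female difference. Among the 12 nearest Z genes at or above the median level, 6 on each side in gene order, 9 were higher in males and the median difference was 0.64 (ratio 1.56). Of all 445 Z genes at such levels, 199 were higher in males, with a median difference of 0.47. The next gene on one side, MCCC2, an enzyme of leucine breakdown, differed by 0.15 (SE 0.14, limma adjusted p = 0.900), and the next on the other, MTAP, an enzyme of methionine salvage, by 0.80 (SE 0.11, adjusted p = 0.00336). Of the 12, 11 differed by more than KCNN2, and the range was 0.15 to 0.93. Whether KCNN2 differs from these neighbours beyond the spread was not tested.

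**Figure D4:**
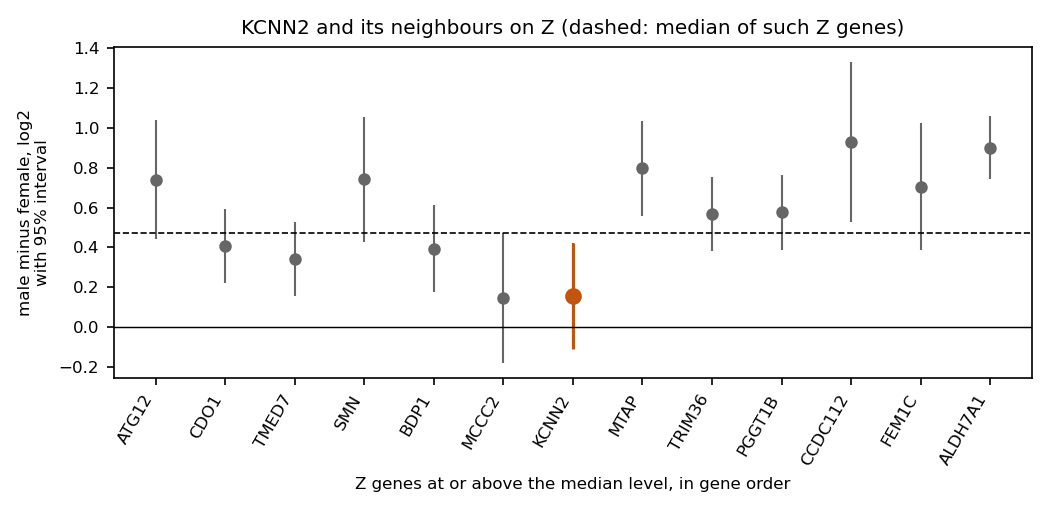
Male minus female difference (log2) with its 95% limma interval for KCNN2 (coloured) and the 6 Z genes at or above the median level on either side of it in gene order. The neighbours run from 0.15 for MCCC2 to 0.93 for CCDC112, and the dashed line marks 0.47.

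KCNJ4, an inward rectifier gene that in mammals is expressed in forebrain neurons, came nearest to the threshold. Its levels were 7.52, 7.37, 8.45, 7.82 and 8.09 in males and 8.62, 8.62, 8.98, 8.65 and 8.57 in females, so every female array lay above every male array. The difference was -0.84 (SE 0.20, 95% interval -1.28 to -0.40, ratio 0.56, limma adjusted p = 0.0928). Without male replicate 3, the highest male, it passed at -0.99 (adjusted p = 0.0189), and over the 20 alternatives that gave a value the adjusted p ran from 0.0189 to 0.857. KCNJ4 was above background on 6 of 10 arrays, namely every female array and, among the males, replicate 3 alone. Its mean level, 8.27, was below the median level. On the other male arrays it lay under the background threshold, so the size of its difference depends on background. The background probe sets had a median difference of -0.18, and their part in that of KCNJ4 was not tested. The dimmer probe set of KCNJ4 differed by -0.22 (SE 0.80).

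CACNA1E was the other channel gene without overlap between the sexes. Its levels were 11.27, 11.69, 11.85, 11.79 and 11.84 in males and 12.37, 11.96, 12.12, 11.92 and 11.86 in females, a difference of -0.36 (SE 0.14, ratio 0.78, limma adjusted p = 0.529). The lowest female, 11.86, and the highest male, 11.85, nearly met, and male replicate 1 was well below the other males. Its 4 probe sets gave -0.36, -0.15, 0.13 and 0.20 from the brightest to the dimmest. In all, the female arrays lay wholly above the male arrays in 2 of 99 channel genes (2.02%) and in 0.736% of all genes, and the reverse held in 0 channel genes and in 2.15% of all genes. These shares of all genes include Z genes, and those of autosomal genes alone were not counted.

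The remaining genes with an unadjusted p under 0.05 did not pass after adjustment. SCN3A had 10.82, 10.69, 10.99, 10.69 and 10.73 in males and 10.59, 10.59, 10.70, 10.29 and 10.63 in females, where only female replicate 3 reached the male range. It differed by 0.23 (SE 0.09, ratio 1.17, limma adjusted p = 0.604), and its other probe set also gave 0.23. KCNJ8, the pore of an ATP-sensitive channel of vessel-wall cells, had 10.77, 10.96, 10.61, 10.55 and 10.78 in males and 10.89, 11.15, 10.85, 11.12 and 10.84 in females, a difference of -0.24 (SE 0.10, adjusted p = 0.624). Only male replicate 2 reached the female range. CACNA1S at -0.90 (SE 0.36) and KCNE1 at 1.54 (SE 0.57) were above background on 1 and 2 arrays, so these sizes depend on background. The other probe sets of CACNA1S gave 0.20, -0.64 and 0.14, and that of KCNE1 gave -0.29.

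The others among the 6 lowest unadjusted p-values in each direction were KCNJ5 at 0.16 (SE 0.09), KCNF1 at 0.37 (SE 0.21), KCNH7 at 0.22 (SE 0.14) and CACNA2D1 at 0.13 (SE 0.09) on the male side, and to KCNJ15 at -0.30 (SE 0.14) and KCNK18 at -1.08 (SE 0.50) on the female side. KCNF1 is a silent subunit, KCNH7 a pore of the ERG family, and KCNK18 a leak channel known from sensory neurons. In none of these 6 were the sexes separate. With the mean over a gene's probe sets in place of the brightest, KCNJ5, KCNF1 and KCNH7 changed sign.

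Probe sets of the same gene often differed from each other. The 99 genes had 202 probe sets, 54 genes had several and CACNA1C had 6. The probe sets that were not chosen lay a median of 1.49 below the brightest of their gene on the log2 scale and at most 6.19, and 51 of these 103 were below the median level. The 5 probe sets of SCN2A had levels from 10.23 to 15.07. Of 29 genes with at least 2 probe sets at or above the median level, 17 showed both signs of the sex difference. In a limma fit over all probe sets, 0 of the 202 passed the adjusted threshold and 5 had an unadjusted p under 0.05. In that fit 161 of 13051 genes passed by their brightest probe set. The shares over all 38439 probe sets were not counted, so whether 0 and 5 are few cannot be read. CACNA1C gave -0.14 to -0.05 in its 6 probe sets, all within their errors.

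The spread between arrays of a sex differed with the level. The within-sex SD had a median of 0.19 over the 59 members at or above the median level, against 0.17 over all genes of such levels, and of 0.95 over the 40 dimmer members. KCNJ6, a channel opened by G proteins in dopamine neurons and cerebellar granule cells, had the largest SD of the 59, at 0.61, and 0.840% of all genes at or above the median level exceeded it. Its levels were 9.97, 10.62, 10.69, 10.63 and 9.96 in males and 11.38, 10.81, 10.53, 9.94 and 9.37 in females, and both the highest and the lowest array were female. KCNN1 followed with 0.43, CACNA2D2 with 0.37 and KCNK3 with 0.36. SCN2A had 0.08.

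**Figure D5:**
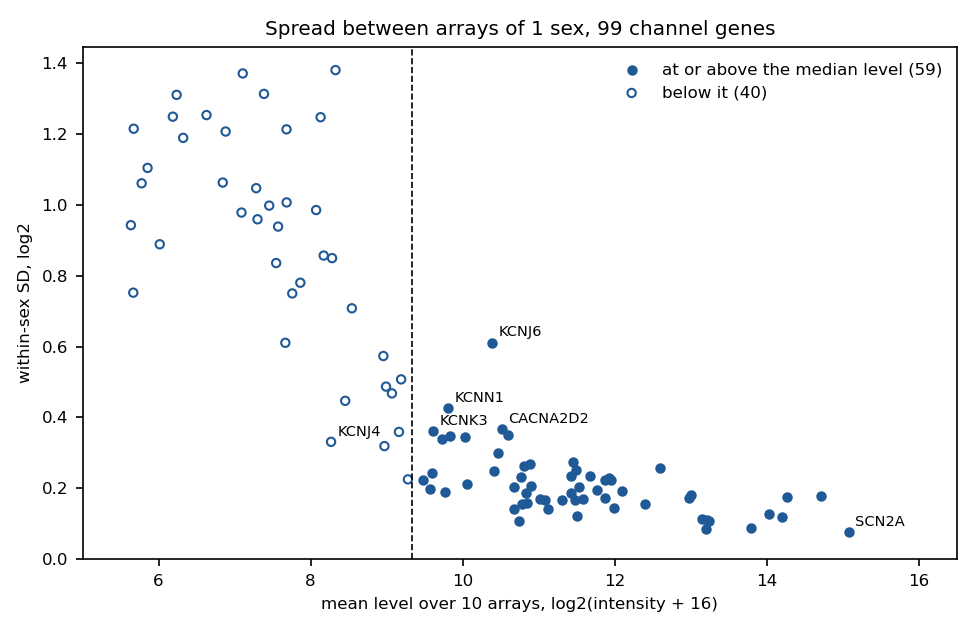
Within-sex SD (log2) against mean level in log2(intensity + 16) for the 99 channel genes; the dashed line is the median level of 9.33. Points left of it reach 1.38, and right of it KCNJ6 at 0.61 lies above the others.

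In 6 lists of channel partners, other voltage-sensing or leak channels and ion pumps, 65 gene identifiers were measured, and UNC80 had more than 1 of them. Of the 65, 1 was higher in males and 0 in females, with a median difference of 0.00. An unadjusted p under 0.05 was found for 5 of the 65 (7.69%), near the 7.62% of all genes. These were TMEM175, SLC12A2 and VPS13A on Z, NEDD4L, placed on W in the table, and PKD2L1 on an autosome. The gene that passed was TMEM175 on Z, a lysosomal potassium channel, at 14.41 ± 0.10 on male arrays and 13.48 ± 0.16 on female arrays (SD, n = 5 each). Its limma difference was 0.94 (SE 0.09, adjusted p = 0.000465, ratio 1.91), with every male array over every female array. SLC12A2, a chloride importer on Z, differed by 0.29 (SE 0.09, adjusted p = 0.351). The 13 axon initial segment and sodium channel partners had a median difference of 0.00. It was -0.04 for the 11 potassium channel partners and -0.05 for the 11 calcium channel partners. The median was 0.02 over the 18 identifiers (17 genes) of other voltage-sensing and leak channels and 0.01 over the 9 pumps and transporters. The 3 HCN partners had -0.33, the value of FLNA, which was above background on 1 array. PEX5L was also below the median level, and NEDD4, a ubiquitin ligase above it, differed by 0.08 (SE 0.13). NEDD4L, a ubiquitin ligase that removes sodium channels from the membrane and is placed on W in the table, did not pass, at 0.59 (SE 0.13, adjusted p = 0.0729). Male birds carry no W, yet its level was 13.60 ± 0.25 on male arrays and 13.01 ± 0.17 on female arrays, with every male array over every female array. Which copy the probes read was not tested, so the W placement is that of the table only.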

How the data were processed

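The deposited value of each probe set is an intensity on a linear scale, from 1 Affymetrix array per sample. The values show a mean of 2500 on every array after trimming 2% of probe sets at each end, and the sources used here do not name the summary method. Arrays held 38535 probe sets, of which 38439 were tested. Intensities were turned into log2(intensity + 16) with no further scaling. Platform gene IDs were matched to current symbols in a RefSeq table of assembly bGalGal1.mat.broiler.GRCg7b, which matched 97 of the 99 members, and KCNE1 and KCNU1 kept the platform's symbol. The array's build is not given, so no coordinates are printed.

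Sexes were grouped by the sample descriptions and compared with limma 3.58.1 (R 4.3.3) over 13051 genes, with 1 probe set per gene, the brightest over 10 arrays. The procedure was also run on simulated data, drawn independently for each gene and array. Such data hold no background shift between arrays and no differing probe sets of a gene, so that run cannot speak to these limits. The number of arrays limits the precision. Genes were named by a rule: members on Z or W, those past the threshold, the 6 lowest p-values in each direction, the 3 brightest per role group, the 4 largest within-sex SDs at or above the median level, and 33 set names, of which 11 were not among the members. Members and lists were chosen with earlier results of these data known, and the comparison of KCNN2 with other Z genes was added after seeing the data. Alternatives were 2 other pseudocounts, quantile normalization, centring on autosomal genes, array weights, another variance prior, the mean over probe sets, all probe sets, probe sets of unique name type, a filter on dim genes, a replicate block and each array left out.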

Additional observations from a re-analysis of the deposited data

Results flagged for a closer look

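In 6 of 98 sets of 5 arrays of a named gene (6.12%) 1 array stood far from the other 4 for the range of the set, and chance gives about 1 in 20. In CACNA1E, male replicate 1 was lowest at 11.27, with the other males at 11.69 to 11.85. In SCN3A, female replicate 4 was lowest at 10.29, with the other females at 10.59 to 10.70. In KCNJ4, female replicate 3 was highest at 8.98, with the other females at 8.57 to 8.65. The remaining 3 were genes above background on no array. CACNG1 had male replicate 4 highest at 8.05 (other males 5.02 to 5.82), KCNV2 had the same array highest at 8.19 (4.71 to 5.20), and SCN4B had male replicate 5 highest at 8.30 (5.01 to 5.65).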

How the results depend on the processing

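Under 21 alternatives the count of channel genes higher in males stayed at 0. The count higher in females was 0 to 1 when 1 array was left out, the 1 being KCNJ4 without male replicate 3 (-0.99), and 0 in all others. With the mean over probe sets, the differences of KCNF1 (-0.0649), KCNH7 (-0.0877), KCNJ5 (-0.0464), KCNK7 (-0.0780) and SCN2A (-0.0263) turned negative, and the cause was not tested. Another 89 of 1016 values changed sign in 26 genes whose difference lay within 1 SE of 0. KCNN2 against other Z genes (chosen after seeing the data) ran from -0.44 to -0.29 without 1 array. A replicate block on the title letters, over 8 arrays, gave KCNN2 0.22 and KCNJ4 -0.77 (limma adjusted p = 0.335). It called 0 channel genes but also only 1 of 13051 genes, against 234 without the block, so its 0 says little about channel genes. Arrays of the same letter deviated together with r of -0.03 to 0.09. Each of the 8 arrays was set against the 4 lettered arrays of the other sex, and 4 of 8 correlated best with that of their own letter. This count was not tested against chance. No label says that the letters pair samples, so they were not taken as pairs, and whether they do was not settled. The difference between the 2 Z members and the autosomal members ran from -0.28 to 0.26 around 0.03. Signal near background limits the 40 dimmer members.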

Other observations

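Photoreceptor and pineal markers, the tissue in which KCNV2 is best known, were measured for 6 genes. All 6 had a negative male minus female difference (median -0.56), 0 passed the limma test and 2 had an unadjusted p under 0.05, where 8.18% of all genes below the median level did. AANAT, the enzyme that sets the rhythm of melatonin synthesis, stood at 8.82 ± 0.42 on male arrays and 9.43 ± 0.21 on female arrays (SD, 5 arrays each). It differed by -0.60 (SE 0.20, adjusted p = 0.358 in limma). None of the 6 reached the median level, and of 3764 genes below it 2274 had a negative difference. Background itself had a median difference of -0.18, and its part in these differences was not tested. AANAT was above background on all 10 arrays.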
